A study of Homo sapiens with 6 samples.

Results

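The genes described here are 6 claudins (CLDN1, CLDN3, CLDN4, CLDN7, CLDN12 and CLDN16) and 4 other genes of epithelial cell junctions (CDH1, EPCAM, TJP1 and OCLN), 10 of the 57290 genes quantified. They were chosen by gene name, and the level of each is the sum of TPM (a level per transcript length and per library total) over the transcripts of the gene. RNA came from KMM1, an established human multiple myeloma line, a cancer of plasma cells, 4 days after transduction with a lentivirus. In 3 libraries the virus carried TAZ, a transcriptional coactivator of the Hippo pathway encoded by WWTR1, and in 3 control libraries it was the empty vector WPI. The sources do not say whether the libraries of a group came from separate cultures, so all p-values measure the spread between these libraries, which may be technical. Every library was polyadenylated RNA from transduced cells, and untransduced KMM1 cells were not analysed here.

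Tight junctions seal neighbouring epithelial cells. Claudins are their pore- and barrier-forming membrane proteins, occludin (OCLN) is a further membrane strand protein, and ZO-1 (TJP1) is the scaffold that ties the strands to actin. E-cadherin (CDH1) holds adherens junctions together through catenins, and EPCAM is a cell adhesion glycoprotein of epithelia that binds certain claudins. Plasma cells are single cells of haematopoietic origin and form no epithelial junctions.

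Libraries held from 1099.949 to 2033.204 megabases aligned, of which 73.6% to 75.9% lay on annotated transcripts. WWTR1 stood at 2.35, 1.21 and 1.40 scaled TPM in control libraries 1, 2 and 3 and at 365, 138 and 145 in TAZ libraries 1, 2 and 3, so each label matched its target gene. The plasma cell markers were all present, with a summed level of 2442 to 3161 scaled TPM in control and 2857 to 3252 in TAZ libraries. Of 10 plasma cell markers tested, 3 fell (SDC1, IRF4 and SLAMF7) and none rose, where 0.964% of all tested genes were called lower and 2.25% higher. The most abundant, IGJ and XBP1, were 1147 ± 88.3 and 705 ± 480 in control and 1841 ± 253 and 732 ± 111 scaled TPM in TAZ libraries.

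Among the 10 genes, CLDN16 and CLDN4 rose in the TAZ libraries, and no gene fell by the test. The test was limma on log2(scaled TPM + 1) over the 19390 genes whose mean reached 1 TPM, with a Benjamini-Hochberg adjusted p under 0.05. Of the 8 members that passed this filter, 2 were called higher and 0 lower, where 3.21% of all tested genes were called, 2.25% higher and 0.964% lower. CLDN1 and TJP1 stayed below the filter. The median log2 difference of the 8 was 0.22, beside -0.05 over all tested genes, and 6 of the 8 lay above 0. The groups did not overlap for 5 of the 8, beside 24.9% of all tested genes. TAZ libraries lay above all control libraries for 4 of them (CLDN4, CLDN7, CLDN12 and CLDN16), beside 10.1% of all tested genes, and below for CDH1, beside 14.8%. Without scaling the same 4 genes lay above, beside 15.7% of all tested genes, and 0 lay below, beside 5.67%. CLDN16 passed the filter only through its TAZ libraries, so counts over the 8 carry that selection.

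**Figure D1:**
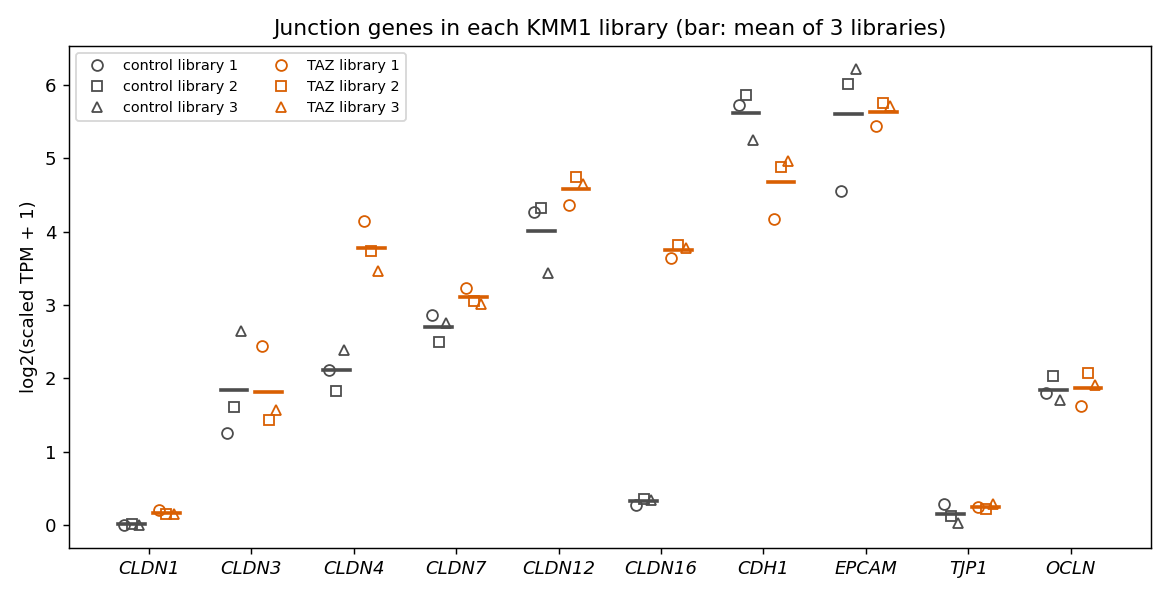
Level of each of the 10 genes as log2(scaled TPM + 1) in the 3 control libraries (grey) and the 3 TAZ libraries (orange), with symbols for library numbers and a bar at the mean of each group. CLDN16 and CLDN4 stand apart between the groups, CDH1 lies lower in TAZ libraries, and EPCAM in control library 1 lies below all other libraries.

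In control cells the genes spanned a wide range of levels. EPCAM (53.3 ± 27.1 scaled TPM, SD, n = 3) and CDH1 (48.7 ± 10.5) were highest and overlapped between libraries, followed by CLDN12 (15.7 ± 5.09) and CLDN7 (5.55 ± 0.837), which did not overlap each other. CLDN4 (3.36 ± 0.836), CLDN3 (2.90 ± 2.08) and OCLN (2.61 ± 0.427) overlapped, and CLDN16, TJP1 and CLDN1 lay under 1 scaled TPM. In TAZ cells the order was EPCAM, CDH1, CLDN12, CLDN4, CLDN16, CLDN7, then CLDN3 and OCLN, then TJP1 and CLDN1. CLDN4 and CLDN16 overlapped in that order, as did CDH1 and CLDN12. EPCAM stayed above every other member in all TAZ libraries.

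CLDN16, which forms a paracellular pore for magnesium and calcium in the kidney's thick ascending limb, showed the largest difference of the 10. The gene (ENSG00000113946.3) lies on the plus strand of hg19 chr3:190040330-190129932. Its level was 0.212, 0.274 and 0.263 scaled TPM in control libraries 1, 2 and 3, and 11.5, 13.1 and 12.7 in TAZ libraries 1, 2 and 3. The control libraries were all near 0 and the TAZ libraries sat close together far above them. The difference was 3.43 ± 0.16 (SE) on the log2(scaled TPM + 1) scale, with a 95% interval of 3.05 to 3.80 and a limma adjusted p of 2.54e-04. It was called in 13 of 13 other settings of scaling, pseudocount, filter, model and left-out library, with log2 differences between 3.36 and 5.17. The aligned bases behind these values were 466 to 906 per control library and 27151 to 30763 per TAZ library.

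All CLDN16 signal was assigned to 1 of its 3 transcript models, ENST00000264734.2, whose 5 exons run from 190105661 to 190129932. Depth was concentrated on its outer exons. Exon 5, of 2241 bases with 131 of them coding in GENCODE v29, had a depth per aligned gigabase of 0.158, 0.199 and 0.168 in the control libraries and 7.59, 9.51 and 9.01 in the TAZ libraries (two-sided exact permutation test, p = 0.1, which is the lowest value possible with 3 libraries a group). Exon 1, of 572 bases with 324 of them coding, had 0, 0 and 0.0819 against 3.70, 4.72 and 4.69 (exact permutation p = 0.1). Exon 4 carried depth in TAZ library 3 alone. Exons 2 and 3, of 103 and 165 bases, were listed at 0 in every library. Such zeros are common here: among transcripts of at least 10 TPM with at least 3 exons, 55.9% to 63.1% of internal exons under 200 bases were listed at 0, against 9.46% to 10.1% of longer internal exons. A zero at a short exon of these genes therefore does not show that the exon was skipped.

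CLDN1, a barrier-forming claudin of skin and other epithelia, lies head to head with CLDN16 in the annotation used for quantification. It is on the minus strand of hg19 chr3:190023490-190040264, and in that annotation 65 bases separate its start from the first CLDN16 start. RefSeq also places a CLDN16 start in a window at GRCh38.p14 chr3:190290111-190290410, plus strand, which lies before this gap. The RefSeq sequence of the gap (GRCh38.p14 chr3:190322476-190322540, minus strand, 5′ to 3′) is printed because it lies between the CLDN1 start and that first CLDN16 start of the annotation used. Capitals mark a GC box, CCGCCC, on each strand.
CLDN1 to CLDN16 gap: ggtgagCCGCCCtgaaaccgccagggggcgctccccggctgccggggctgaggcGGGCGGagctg
The CLDN16 model that carried the signal starts inside the gene at 190105661, not at this gap. CLDN1 itself was listed at 0, 0.0114 and 0 scaled TPM in the control libraries and at 0.153, 0.113 and 0.104 in the TAZ libraries. The TAZ libraries were higher with no overlap, but these values rest on 0, 40 and 0 aligned bases against 435, 250 and 263. With no filter on low values the limma adjusted p of CLDN1 was 0.126, so it did not pass.

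CLDN4, a claudin of many simple epithelia that lowers sodium permeability, rose in the TAZ libraries. It lies on the plus strand of hg19 chr7:73213872-73247014 (ENSG00000189143.8). The level was 3.33, 2.54 and 4.21 scaled TPM in control libraries 1, 2 and 3 and 16.6, 12.4 and 10.02 in TAZ libraries 1, 2 and 3. The lowest TAZ library was above the highest control library. The difference was 1.67 ± 0.24 on the log2 scale, with a 95% interval of 1.09 to 2.26 and a limma adjusted p of 0.0165. The direction was the same in all 13 other settings (1.49 to 1.92), and the call was made in 8 of them. Among left-out libraries it was lost without control library 1 (limma adjusted p = 0.0557), control library 2 (0.0677) or TAZ library 2 (0.0857), and it was also lost with no filter on low values (0.0586). The single-exon model ENST00000340958.2, of 1822 bases, held 63.9%, 100% and 70.4% of the bases in the control libraries and 94.0%, 94.0% and 83.0% in the TAZ libraries.

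CLDN3, a barrier-forming claudin of epithelia, is the neighbour of CLDN4 at a distance of 29271 bases, on the minus strand of hg19 chr7:73183328-73184600. The coding sequences of the pair share an identical run of 71 bases, whereas no other pair among CLDN1, CLDN3, CLDN4, CLDN7 and CLDN16 shares more than 15. The run is printed, in capitals with 20 bases on each side, because a read inside it could come from either gene (GENCODE v29 coding exons, GRCh38 chr7:73769812-73769922, minus strand, for CLDN3 and chr7:73831332-73831442, plus strand, for CLDN4, both 5′ to 3′).
CLDN3: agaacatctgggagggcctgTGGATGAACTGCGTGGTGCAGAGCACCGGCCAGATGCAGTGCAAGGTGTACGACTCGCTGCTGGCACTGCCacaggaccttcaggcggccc
CLDN4: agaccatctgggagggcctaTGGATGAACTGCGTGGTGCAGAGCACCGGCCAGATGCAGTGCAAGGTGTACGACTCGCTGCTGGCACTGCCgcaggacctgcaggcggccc
CLDN3 stood at 1.37, 2.06 and 5.27 scaled TPM in the control libraries and at 4.41, 1.69 and 1.95 in the TAZ libraries. Control library 3 and TAZ library 1 were the high ones, and the groups overlapped. The log2 difference was -0.03 ± 0.44, with an interval of -1.08 to 1.02 (limma adjusted p = 0.979), so neither a 2-fold rise nor a 2-fold fall lay outside it. TAZ library 1 was the highest TAZ library for both genes. How reads inside the shared run were split between the pair was not tested.

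CLDN7, a claudin found along the basolateral side of epithelial cells and a binding partner of EPCAM, was slightly higher in TAZ libraries without passing the test. Its level was 6.26, 4.63 and 5.75 scaled TPM in the control libraries and 8.42, 7.32 and 7.10 in the TAZ libraries. The groups did not overlap. The log2 difference was 0.40 ± 0.17, with an interval of -0.01 to 0.81 (limma adjusted p = 0.288). All of its signal lay on the 3-exon model ENST00000538261.3 (minus strand, hg19 chr17:7163223-7166264). A 38-base stretch of its exons overlaps ELP5 on the opposite strand, and whether reads were assigned by strand is not stated in the sources.

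CLDN12, a claudin without the scaffold-binding tail of most others, is widely expressed outside epithelia as well. It stood at 18.3, 18.98 and 9.85 scaled TPM in the control libraries and at 19.65, 25.7 and 24.1 in the TAZ libraries. Control library 3 was the low one, and the highest control and lowest TAZ library nearly met. The log2 difference was 0.57 ± 0.28, with an interval of -0.09 to 1.24 (limma adjusted p = 0.333). The model ENST00000535571.1 (plus strand, hg19 chr7:90032712-90045268) carried most of the level in every library. Exons of the gene overlap those of GTPBP10 by up to 347 bases and of CDK14 by up to 90 bases, both on the same strand. These overlaps lie outside ENST00000535571.1, as GTPBP10 ends at 90020769 and CDK14 starts at 90095738. Sharing of reads with these genes was not tested.

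**Figure D2:**
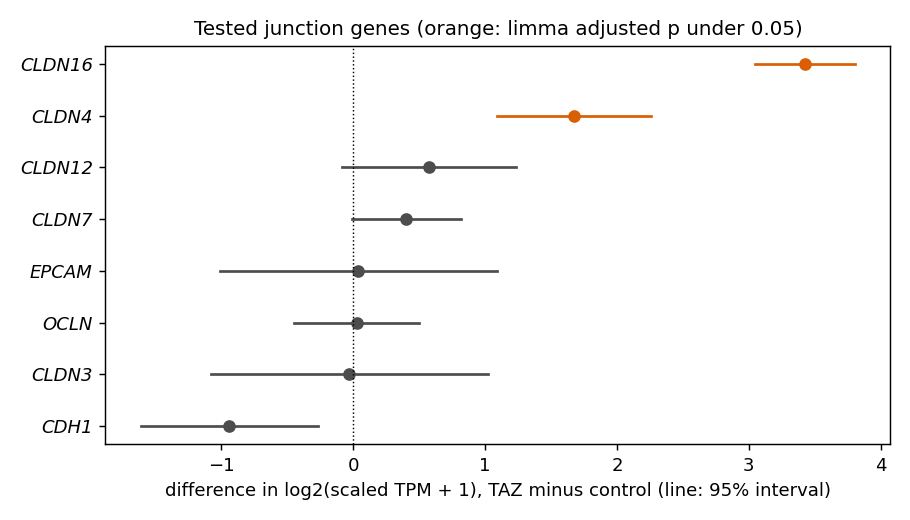
Difference in log2(scaled TPM + 1), TAZ minus control, for the 8 tested genes, with points at the limma estimate and lines for the 95% interval. Orange marks CLDN16 (3.43) and CLDN4 (1.67), which passed the test, and the interval of CDH1, -1.61 to -0.27, lies below 0 although its adjusted p did not pass.

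OCLN, the gene of occludin, did not differ detectably. It was 2.49, 3.08 and 2.25 scaled TPM in the control libraries and 2.09, 3.21 and 2.75 in the TAZ libraries. The groups overlapped throughout. The log2 difference was 0.02 ± 0.20, with an interval of -0.45 to 0.50 (limma adjusted p = 0.961), so a 2-fold change lay outside the interval. All 5 of its exons under 200 bases were listed at 0 in every library (hg19 chr5:68788119-68853931, plus strand).

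TJP1, the gene of the ZO-1 scaffold, was close to absent in both groups. It was 0.224, 0.0872 and 0.0158 scaled TPM in the control libraries and 0.185, 0.158 and 0.220 in the TAZ libraries. The groups overlapped, and no library reached 1 scaled TPM. The depth behind it was 60 to 1312 aligned bases per library, over a model of 28 exons. Without the filter on low values its limma adjusted p was 0.664.

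CDH1 was lower in the TAZ libraries, but the difference did not pass the test. It lies on the plus strand of hg19 chr16:68771128-68869451 (ENSG00000039068.14). The level was 52.2, 57.0 and 36.9 scaled TPM in control libraries 1, 2 and 3 and 17.1, 28.4 and 30.1 in TAZ libraries 1, 2 and 3. Every TAZ library lay below every control library on the scaled values, while on the deposited values the groups overlapped. The log2 difference was -0.94 ± 0.28, with an interval of -1.61 to -0.27, an unadjusted limma p of 0.0132 and an adjusted p of 0.161. It was called in 0 of 13 other settings.

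The CDH1 signal was unevenly spread over its transcript models and exons. The full-length protein-coding model ENST00000261769.5 was given 14.9, 16.2 and 0 TPM in the control libraries and 0, 22.1 and 20.3 in the TAZ libraries. Control library 3 and TAZ library 1, at 0 for that model, carried their signal on other long models instead (ENST00000566510.1 and ENST00000562836.1), so the split between models was not stable between libraries of a group. The 4-exon model ENST00000564676.1, of 969 bases and annotated as a processed transcript without coding sequence, was present in every library. It stood at 22.0, 21.7 and 14.9 scaled TPM in the control libraries and at 6.01, 9.92 and 7.07 in the TAZ libraries (exact permutation p = 0.1). Without it, the rest of CDH1 was 30.2, 35.3 and 22.0 against 11.1, 18.5 and 23.1 scaled TPM, where the groups overlapped (exact permutation p = 0.2).

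The exon depths of CDH1 bear on the same split, and those named here were chosen after their values were seen. The first exon of ENST00000564676.1 (hg19 chr16:68799023-68799467) lies between exons 2 and 3 of the full-length model. Its depth per aligned gigabase was 6.88, 6.76 and 4.11 in the control libraries and 2.42, 2.41 and 2.59 in the TAZ libraries, with no overlap (exact permutation p = 0.1). Exon 3, which both models hold, had 37.7, 36.1 and 23.6 against 10.3, 14.5 and 12.9, also with no overlap (exact permutation p = 0.1). Exon 12 had 19.9, 24.3 and 26.9 against 15.9, 29.8 and 30.1, and there the groups overlapped (exact permutation p = 0.8). The ratio of exon 3 to exon 12 within a library, which does not depend on scaling between libraries, was 1.90, 1.48 and 0.877 in the control libraries and 0.647, 0.488 and 0.427 in the TAZ libraries (exact permutation p = 0.1). Of the other exons, 11 and 15 were also lower in all TAZ libraries than in all control libraries, and 10, 13, 14 and 16 overlapped. Each of exons 5 to 9 was listed at 0 in at least 1 library of each group and overlapped; exon 7, for example, had 22.8, 26.4 and 0 in control libraries and 0 in all TAZ libraries. The ratio of exon 10 to exon 12 was lower in every TAZ library, at 0.999, 0.908 and 0.859 in control and 0.659, 0.753 and 0.517 in TAZ libraries (exact permutation p = 0.1). Both ratios share exon 12, which was chosen after its values were seen, and the depth of exon 10 alone overlapped. Exons 1 and 2 of the full-length model were listed at 0 in every library. Such zeros are common at first and short exons here (36.2% to 39.3% of first exons of transcripts of at least 10 TPM), so they do not show where transcription started. Exon depth was divided by aligned bases alone, without the scaling used for the gene levels. On that measure TAZ libraries lay below control libraries without overlap at some exons, and not at exon 12. Exon 3 and the first exon upstream of it were among those without overlap.

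**Figure D3:**
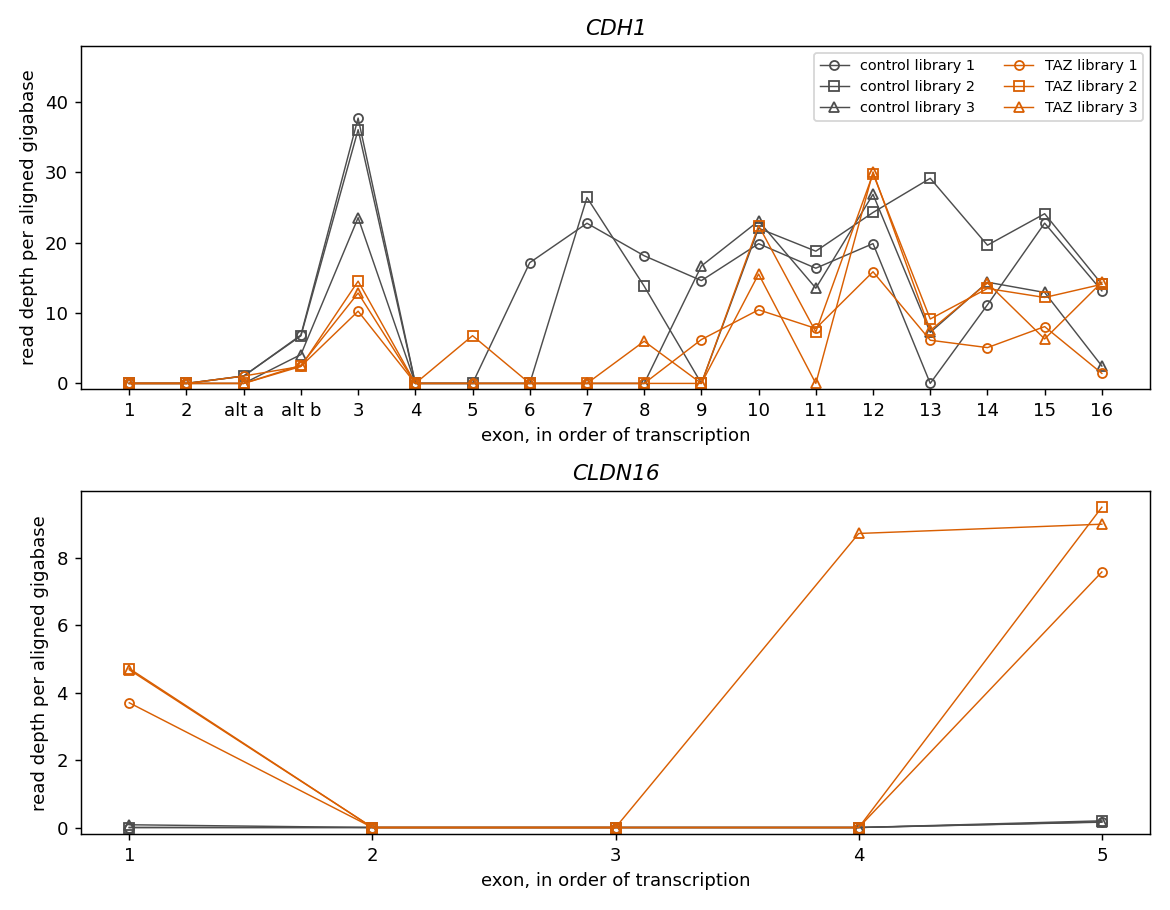
Depth per aligned gigabase at each exon of CDH1 (top, model ENST00000261769.5, with the first exons of ENST00000562836.1 and ENST00000564676.1 as alt a and alt b) and of CLDN16 (bottom, model ENST00000264734.2) in each library, where lines join the exons of 1 library. At CDH1 exon 3 the control libraries (23.6 to 37.7) lie above the TAZ libraries (10.3 to 14.5) while exon 12 overlaps, and CLDN16 depth in TAZ libraries sits at exons 1 and 5, with exon 4 also covered in TAZ library 3 (8.73).

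EPCAM did not differ detectably, and its spread among controls came mostly from 1 library. It was 22.5, 63.7 and 73.7 scaled TPM in control libraries 1, 2 and 3 and 42.3, 53.2 and 51.6 in TAZ libraries 1, 2 and 3 (hg19 chr2:47572297-47614740, plus strand). Control library 1 was low and the TAZ libraries lay inside the control range. The log2 difference was 0.04 ± 0.44, with an interval of -1.01 to 1.09 (limma adjusted p = 0.972). Without control library 1 the difference was -0.48 and was not called. Exon 7 (hg19 chr2:47606908-47607108, 201 bases, all coding) had a mean depth of 0.325 in that library, against 193 and 103 in the other control libraries and 84.1, 84.0 and 91.9 in the TAZ libraries. The total of aligned bases was 1719 megabases in that library. The models ENST00000263735.4 and ENST00000405271.1, both coding, held most EPCAM bases, the former with 41.0%, 44.0% and 55.9% in the control and 52.3%, 26.7% and 23.5% in the TAZ libraries.

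Other genes of the same structures changed in part. Lists of 90 further genes were used, of which 52 were tested. Of these, 6 rose (MAGI1, MPP5, AMOT, AMOTL2, VCL and LIMA1) and 1 fell (PVRL1), where 2.25% of all tested genes were called higher and 0.964% lower. Of the 52, 35 lay above 0, with a median log2 difference of 0.21. AMOT and AMOTL2, near 0 in control libraries, passed the filter only through their TAZ libraries. So did MPDZ, CTNND1 and MARVELD3, with control means of 0.729, 0.807 and 0.988 scaled TPM, so these counts carry that selection. TAZ libraries lay above all control libraries for 18 of the 52 and below for 5, beside 10.1% and 14.8% of all tested genes. Without scaling the medians were 0.46 for the 52 and 0.17 for all tested genes.

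Among 17 other claudins, 4 were tested and none was called, where 3.21% of all tested genes were called. CLDN6, a claudin of embryonic epithelia, was the most abundant claudin in both groups, at 135 ± 37.1 scaled TPM in control and 172 ± 35.7 in TAZ libraries (limma adjusted p = 0.488). CLDN15, a cation pore of the intestine, was the next of these 17, at 17.0 ± 8.32 and 17.8 ± 0.748 (limma adjusted p = 0.815). Of 13 tested among 16 other tight junction genes, 1 rose, beside 2.25% of all tested genes. That was MAGI1, a scaffold of tight and adherens junctions, which went from 6.63, 7.39 and 5.57 in control to 17.2, 18.4 and 17.3 scaled TPM in TAZ libraries (log2 difference 1.31 ± 0.16, limma adjusted p = 0.00829). The 2 of that list with the highest mean over all libraries, SYMPK and LSR, were 80.8 ± 19.5 and 60.6 ± 15.9 in control and 72.7 ± 19.0 and 43.6 ± 16.9 scaled TPM in TAZ libraries, and neither was called.

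Of 13 tested among 16 polarity complex genes, 3 rose and none fell, beside 2.25% and 0.964% of all tested genes. AMOTL2, an angiomotin family member that binds junctional actin, was listed at 0, 0 and 0.0577 scaled TPM in control libraries and stood at 29.5, 44.7 and 35.7 in TAZ libraries (limma adjusted p = 1.69e-04). Its relative AMOT went from 0.0109, 0.00964 and 0.0690 to 2.46, 2.70 and 1.95 scaled TPM (limma adjusted p = 0.00632). These are genes near 0 in the controls, as CLDN16 was, and they passed the filter only through their TAZ libraries. MPP5, the PALS1 scaffold of the Crumbs complex, went from 11.9, 8.86 and 9.67 to 23.0, 26.4 and 25.8 scaled TPM (limma adjusted p = 0.0139). PARD3 and PRKCI, core members of the PAR complex, were not called, at 20.1 ± 1.66 and 17.4 ± 0.903 in control and 20.4 ± 2.25 and 27.7 ± 5.69 in TAZ libraries.

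Of 12 tested among 18 adherens junction genes, 2 rose and 1 fell, beside 2.25% and 0.964% of all tested genes. VCL, the actin linker vinculin, went from 7.84, 9.07 and 6.87 to 19.8, 18.0 and 17.1 scaled TPM (limma adjusted p = 0.0178). LIMA1, the actin-bundling EPLIN, went from 35.6, 36.8 and 29.2 to 97.7, 104 and 99.3 (limma adjusted p = 0.00414). PVRL1, the adhesion receptor nectin-1, fell from 22.2, 21.6 and 20.2 to 10.3, 7.86 and 8.17 (limma adjusted p = 0.0133). The 2 genes of the list with the highest mean over all libraries encode catenins, which bind or anchor E-cadherin inside the cell, and were not called. CTNNB1, beta-catenin, was 62.5 ± 9.65 in control and 132 ± 38.9 scaled TPM in TAZ libraries (limma adjusted p = 0.0957), and CTNNA1, alpha-catenin, was 76.4 ± 49.5 and 76.3 ± 4.65 (limma adjusted p = 0.844). LIMA1 and AMOTL2 were called in 13 of 13 other settings, MAGI1 in 10 of 13, AMOT in 10 of the 11 that tested it, MPP5 and PVRL1 in 8 of 13 and VCL in 6 of 13.

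Desmosome genes and the partners of EPCAM gave no calls, where 3.21% of all tested genes were called. Of 13 desmosome genes 4 were tested, and PKP2, a plakophilin of the desmosome plaque, was the most abundant at 106 ± 7.21 in control and 174 ± 18.2 scaled TPM in TAZ libraries (limma adjusted p = 0.0817). PERP, a desmosomal membrane protein, was 46.2 ± 5.47 and 72.5 ± 6.86 (limma adjusted p = 0.122). The desmoplakin gene DSP was under 1 scaled TPM in both groups. Of 10 EPCAM partners and proteases 6 were tested, and the most abundant, ADAM10 and PSEN2, which belong to the machinery that cleaves EPCAM, were 32.4 ± 6.30 and 21.1 ± 1.77 in control and 39.0 ± 7.25 and 22.8 ± 2.43 in TAZ libraries. SPINT1, an inhibitor of epithelial membrane serine proteases, was 1.63, 2.17 and 5.68 scaled TPM in control libraries and 13.5, 11.6 and 12.2 in TAZ libraries, without overlap, and narrowly missed the threshold (limma adjusted p = 0.0512).

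**Figure D4:**
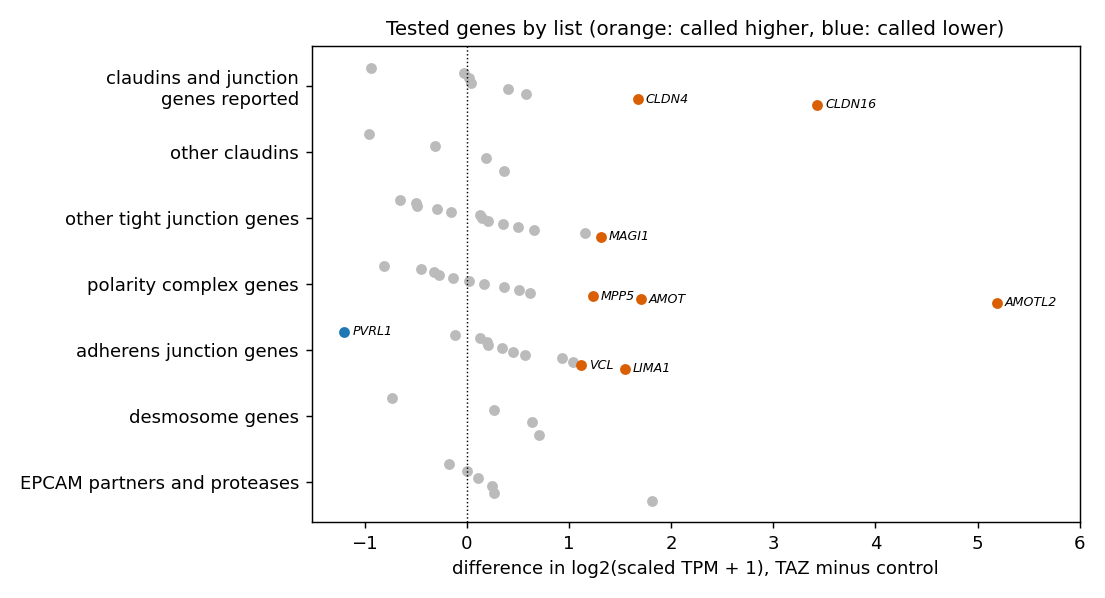
Difference in log2(scaled TPM + 1), TAZ minus control, for each tested gene of the 10 reported genes (top) and of the 6 lists of other junction and polarity genes, with orange for genes called higher and blue for genes called lower by limma. Called genes are labelled, and they lie between 1.12 (VCL) and 5.19 (AMOTL2) on the higher side, with PVRL1 at -1.20.

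No tested gene among repressors of epithelial genes and mesenchymal markers passed the test. Of 8 listed, 5 were tested and 0 called, where 3.21% of all tested genes were called. ZEB2, SNAI2 and TWIST2 lay below the filter and were not tested. SNAI2 was 0, 0.0910 and 0.0260 scaled TPM in control and 0.755, 0.585 and 0.661 in TAZ libraries. ZEB2 was 0.155, 0.211 and 0.297 in control and 0.429, 0.558 and 0.534 in TAZ libraries. Neither gene overlapped between groups. ZEB1, a repressor of CDH1, was 6.04 ± 0.561 scaled TPM in control and 6.89 ± 0.735 in TAZ libraries (limma adjusted p = 0.622). SNAI1, another repressor of CDH1, was 18.0, 12.9 and 10.8 in control and 7.86, 8.02 and 7.43 in TAZ libraries (limma adjusted p = 0.143). The groups did not overlap on scaled values and overlapped on the deposited values. VIM, the gene of the mesenchymal filament vimentin, was 1148 ± 732 and 2089 ± 836 scaled TPM (limma adjusted p = 0.365). FN1 was 0.924 ± 0.445 in control and 2.74 ± 0.227 scaled TPM in TAZ libraries (limma adjusted p = 0.0825). Of the 5 tested, TAZ libraries lay above all control libraries for 1 (FN1), beside 10.1% of all tested genes. They lay below for 1 (SNAI1), beside 14.8%. FN1, with a control mean of 0.924 scaled TPM, passed the filter only through its TAZ libraries, so these counts carry that selection.

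Some markers of epithelial cells and of fibroblasts were higher in the TAZ libraries, while others were not called or lay below the filter. The 14 epithelial markers had a summed level of 129.0 to 219.6 scaled TPM in control and 892 to 2279 in TAZ libraries, mostly from KRT8. Of 8 tested, 3 rose, the keratin genes KRT5, KRT8 and KRT18, where 2.25% of all tested genes were called higher. Of the 14, 3 lay under 0.1 scaled TPM in every library. KRT18 went from 0.0730, 0.164 and 0.614 to 17.1, 11.5 and 9.52 scaled TPM (limma adjusted p = 0.00181). Among epithelial regulators of the list, GRHL2 and OVOL1 were under 0.1 scaled TPM in all libraries. GRHL1 was 3.53 ± 1.18 in control and 3.55 ± 0.263 in TAZ libraries (limma adjusted p = 0.943), ESRP1 was 1.65 ± 0.663 and 1.12 ± 0.169 (limma adjusted p = 0.561), and ELF3 was 1.91 ± 0.101 in control and 2.88 ± 0.235 in TAZ libraries (limma adjusted p = 0.256). The 9 fibroblast markers summed to 2.31 to 3.098 in control and 38.005 to 45.0 in TAZ libraries. Of 3 tested, 2 rose, LUM and DCN, beside the same 2.25% of all tested genes. COL1A1 was 1.79 ± 0.320 and 1.73 ± 0.220 (limma adjusted p = 0.949). KRT17 was listed at 0 in every control library and stood at 30.3, 3.99 and 3.24 scaled TPM in TAZ libraries (limma adjusted p = 0.0921). KRT5, KRT17, KRT18, LUM and DCN, under 1 scaled TPM in control libraries, passed the filter only through their TAZ libraries. The counts of tested and called markers carry that selection. Of 5 endothelial markers measured, 4 were under 0.1 scaled TPM in every library, and ESAM was not called. In bulk RNA, more cells of a type and more RNA per cell cannot be told apart, and the part of these markers in the CLDN4 and CLDN16 results was not tested.

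The genes whose profile over the 6 libraries was most like that of CLDN16 were ANKRD1, HBEGF and CD274, with Pearson r of 0.9996, 0.9995 and 0.9993. For CLDN4 they were KRT8P30, a keratin 8 pseudogene, HABP4 and RNF115, with r of 0.9971, 0.9957 and 0.9956. The 6 libraries form 2 groups, so r here reflects mostly the step between groups, and it is given as a description without a test. Reads of KRT8P30 can be shared with KRT8, whose highest library was also TAZ library 1, at 2217 scaled TPM.

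Promoter windows, 250 bases before to 50 after a start, were matched in RefSeq (GRCh38.p14) for 8 of the 10 genes, with 14 windows in all. CDH1 and EPCAM had no window, so their promoters were not searched for any motif. GGAATG, a motif bound by TEAD factors, the DNA-binding partners of TAZ, was found on either strand in 0 of 14 windows, beside 14% of 35116 windows of all genes. CACCTG, the E-box bound by ZEB and SNAI factors, was in 6 of 14 (CLDN3, CLDN7, CLDN16, OCLN and TJP1) beside 20.6%, and CCGCCC, a GC box, was in 9 of 14 beside 45%. Several windows of a gene can overlap, and a match in letters is no binding site.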

How the data were processed

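Per the submitters' processing notes, the build was hg19 and the tools were STAR 2.3.0, Bowtie2 2.0.0 and StringTie 1.3.3b. Per the file headers, StringTie estimated only transcripts of a supplied annotation, 1 run per library, with no pooling. The authors deposited coverage (mean depth per base), FPKM and TPM for each transcript and coverage for each exon. The annotation release and any use of strand are not given in the sources used here. The deposited TPM was summed per gene, giving 57290 genes, and scaled by the median of ratios over 28148 genes above 0 in every library. Scaled TPM is the unit of all gene levels. The total of aligned bases was recovered from the ratio of deposited coverage to FPKM, and exon depth was divided by it. No read counts were used, so no counting intervals are given.

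The 19390 genes whose mean reached 1 TPM entered limma 3.58.1 (R 4.3.3) as log2(scaled TPM + 1), with lmFit and an eBayes step that used trend and robust, no block, and p adjusted by Benjamini-Hochberg over all of them at 0.05. Folds on this scale understate changes of genes with low TPM. Intervals are 95% intervals of the log2 difference. Single exons and transcripts were compared with an exact two-sided permutation test. The 13 alternatives were 2 other scalings, a pseudocount of 0.1, no filter, a filter at 5 TPM, eBayes without trend and robust, a replicate block and leaving out each library. On simulated data for the same 19390 genes, limma called 78 of 100 genes set to a 4-fold change and 3 of 100 set to a 2-fold change, with 0 in the wrong direction and 4 false calls. The changed genes were drawn only from those whose mean log2(scaled TPM + 1) exceeded that of 5 TPM. Genes below that, such as CLDN3, OCLN and CLDN16, were outside this setting. Fewer genes were changed than the 623 called in the data.

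Samples were grouped and numbered by their titles. The genes and lists were chosen with earlier results of these data known, and no test was run over a list. Besides the 10 genes, the text names list members that were called, the 2 tested genes of a list with the highest mean over all libraries, genes overlapping a member, and the 3 genes most like each called member. CTNND1, DSP, ELF3, ESRP1, FN1, GRHL1, GRHL2, KRT17, MARVELD3, MPDZ, OVOL1, SNAI2, SPINT1, TWIST2, ZEB1 and ZEB2 were named after their values were seen. Sequence came from GRCh38, and no position was converted between builds. Spike-in RNA was not used here. The labels say that 2 libraries shared a sequencing chip without saying which, so chip and group cannot be told apart.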

Additional observations from a re-analysis of the deposited data

How the results depend on the processing

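Over all genes, the 436 called higher became 290 with no filter on low values and 224 to 513 when 1 library was left out, and the 187 called lower became 85 without scaling, 62 with no filter and 54 to 261 when 1 library was left out. Of the 10 junction genes, the 2 called higher became 1 with no filter and 1 to 2 when 1 library was left out, with CLDN4 the gene lost and CLDN16 kept in every setting. Of the other listed junction genes, the 6 called higher became 2 to 7 and the 1 called lower 0 to 1 when 1 library was left out, and 0 were called lower with no filter. The cause of these moves was not tested, and leaving out a library also left fewer libraries in the fit.

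Directions changed only for CLDN3, EPCAM and OCLN, none of which was called in any setting. The log2 difference of CLDN3 was 0.15 without scaling, 0.011 with upper quartile scaling, 0.38 without control library 3, 0.16 without TAZ library 2 and 0.090 without TAZ library 3, within a range of -0.34 to 0.38 when 1 library was left out. That of EPCAM was -0.48 without control library 1, -0.02 without TAZ library 2 and -0.0044 without TAZ library 3, within a range of -0.48 to 0.35. That of OCLN was -0.05 without control library 3 and -0.079 without TAZ library 2, within a range of -0.08 to 0.14. CLDN3 and OCLN were not tested with the filter at 5 TPM.

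Deviations of same-numbered libraries from their group means correlated at 0.0040, -0.024 and -0.055. With 3 libraries a group, these values cannot decide whether same-numbered libraries were prepared together. With the replicate number as a block, 202 genes were called higher and 34 lower, among them 1 of the 10 junction genes (CLDN16) and, of the other listed junction genes, 2 higher and 0 lower. The limma adjusted p of CLDN4 was then 0.0941.

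Short exons listed at 0 limit what can be said of splicing, and the depth of CLDN1 and TJP1 limits both to presence or near absence. Of 100 simulated 2-fold changes, all in genes above about 5 TPM, limma called 3. In that setting changes of 2-fold and less were mostly below what 3 libraries against 3 resolved.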
